A study of Sus scrofa with 18 samples.

Results

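The genes described here are those of the extracellular matrix: the collagens, the laminins, the fibrillins and fibulins, the collagen crosslinking enzyme LOX, the proteoglycans VCAN, DCN, LUM, BGN and ASPN, and the glycoproteins FN1, SPARC and POSTN. They were chosen by gene symbol, from the probe sets (groups of probes for the same transcript) that carry a single symbol in the platform annotation. The rule found 60 probe sets of 29 genes among the 24123 probe sets of the array, and their measured values played no part in it. Endometrium, the lining of the uterus, was taken from pregnant Meishan gilts, a prolific Chinese breed, and from Yorkshire gilts, a less prolific breed, on gestational day (GD) 15, GD26 and GD50, and each gilt had been mated to a boar of its own breed. The 6 groups of breed and day have 3 arrays each, 18 in all. For each array, RNA from 1 conceptus attachment site of each of 2 gilts was pooled. Since a group drew all 3 pools on the same gilts, its p-values reflect differences among site pools, and the spread among animals was not measured. The comparisons ask how matrix transcripts changed between the middle and the end of the implantation period (GD26 vs. GD15) and on to the established placenta (GD50 vs. GD26), and whether the breeds differed in these changes.

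The matrix is the meshwork that cells secrete and attach to. Fibrillar collagens form the load-bearing fibrils of connective tissue, type IV collagen and the laminins form the sheet-like basement membrane under epithelium and around vessels and muscle cells, and proteoglycans and adhesive glycoproteins fill, space and link these. In the pig the placenta attaches to the uterine epithelium without invading it, and the connective tissue beneath is known to be remodelled while the attachment surface folds.

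Values are log2 intensities, so a change of 1 unit is a factor of 2. A probe set was tested where its intensity exceeded 100 (6.64 on the log2 scale) on at least 6 arrays, and "rose" and "fell" are used of changes with an adjusted p (Benjamini-Hochberg) under 0.05 in limma, a linear model fitted to all 9320 such probe sets. Errors of changes are standard errors. A fold is written with "at least" where none of the 3 arrays of the dimmer group reached 100, and it was then computed from 100 instead of their mean. In whole tissue, fewer cells of a type and less RNA per cell cannot be told apart.

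The 6 arrays of Yorkshire GD26 and Yorkshire GD50 differed from the other 12 in brightness. Their hybridization controls, which are added to every sample, averaged 11.71 to 13.67 against 9.997 to 11.33, and their medians over the tested probe sets were 7.78 to 8.13 against 8.31 to 8.40. The median change of all tested probe sets from GD15 to GD26 in Yorkshire was −0.47 as deposited and −0.08 after each array was centred on its median. All 19 matrix probe sets that rose at this step in Yorkshire also did so after centring. Centring moved every change at this step upward by the same amount. It could not make a rise smaller, so these 19 calls are no test of the rises against the brightness. Centred values are given for genes above 100 on the GD15 arrays. The arrays carried the epithelial markers of endometrium, with all 15 genes of an epithelial list past the filter and summed intensities of 70370 to 102200 (MUC1, SAL1 or SPINT1 lay under 100 in some groups), and VIM of mesenchymal cells at 12.92 to 13.94. Of 7 measured genes of a fibroblast and stroma list of 11, 1 rose and 1 fell by GD26 and 0 rose and 2 fell by GD50 in Meishan, and 1 rose and 2 fell (3 and 1 centred), then 0 rose and 1 fell, in Yorkshire. The summed intensity of the list was 18270 to 19230, 31110 to 34660 and 33790 to 37930 on the 3 days in Meishan and 17240 to 19650, 26130 to 26300 and 35880 to 38690 in Yorkshire, and its steroid receptors ESR1 and PGR lay under 100 on every array. Within the list, THY1 ran at 7.75 to 10.80 on the GD15 arrays and at 13.66 to 14.85 on the later ones. The higher sums thus do not stand for the list as a whole. Trophoblast genes came with the later days: the summed intensity of 12 such genes was 594.5 to 649.3 on the Meishan arrays of GD15, 41120 to 75410 on GD26 and 71340 to 88890 on GD50, and in Yorkshire it was 528.7 to 562.9, 74590 to 90000 and 47020 to 66380. TFAP2C was under 100 on all arrays, and PLET1 rose from 2.19 to 2.32 on GD15 to between 14.37 and 15.14 afterwards. Of 8 measured genes of this list, 6 rose and 0 fell by GD26 in each breed. By GD50, 2 rose and 0 fell in Meishan, and 0 rose and 2 fell in Yorkshire. GATA2 ran at 7.29 to 8.9 and CYP19A3 at 6.69 to 7.35 over all arrays, and CYP17A1 and CYP19A1 lay under 100 on GD15 and GD50. The sums thus do not stand for every gene of the list. HBE1, an embryonic globin, was at 12.64, 10.96 and 6.64 on the Meishan arrays of GD26 and at 13.81, 14.06 and 13.94 on the Yorkshire arrays of GD26, and at no more than 3.07 on all others. Smooth muscle and pericyte genes also moved, with 6 of 7 higher on GD26 than on GD15 in each breed. By GD50, 0 rose and 6 fell in Meishan, and 0 rose and 2 fell in Yorkshire. Beside these and the trophoblast and stroma counts, 23.8% of all tested probe sets rose and 27.1% fell by GD26 in Meishan. For Yorkshire the shares were 20.3% and 44.9%. By GD50 they were 8.2% and 10.2% in Meishan and 5.72% and 7.85% in Yorkshire. The part that these tissues had in the changes of the matrix genes was not tested.

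**Figure D1:**
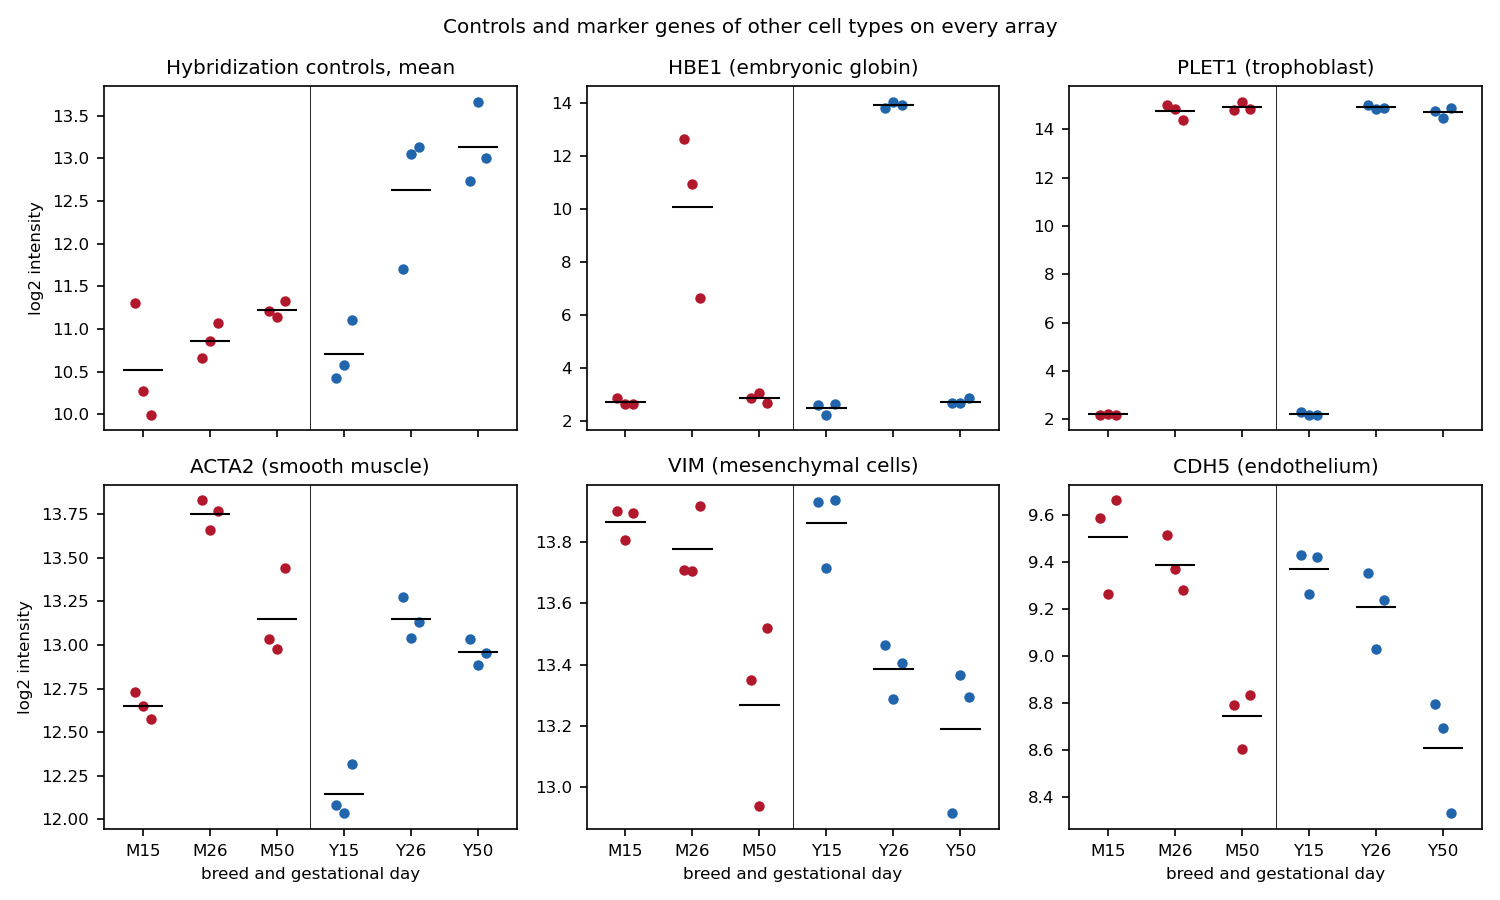
Log2 intensity (vertical axes) on each array, by breed and gestational day (M Meishan, Y Yorkshire), of the mean of the hybridization controls and of 5 marker genes; dots are arrays and black bars are group means (n = 3). The controls reached 11.71 to 13.67 on the 6 later Yorkshire arrays, HBE1 appeared on GD26 arrays and PLET1 on all arrays of GD26 and GD50.

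Of the 60 matrix probe sets, 25 from 19 genes passed the filter. For 7 of them, from COL1A2, LAMC1, LOX, POSTN and VCAN, the intensity exceeded 100 on 12 arrays or fewer, so they entered the test through the groups in which they were high. A higher value in those groups was thus part of their selection. The basement membrane genes were measured best, with 8 of 9 probe sets past it, followed by 4 of 5 for the elastic fibre and microfibril genes and 6 of 10 for the proteoglycans. Of 18 probe sets for fibrillar collagens, 3 passed, from COL1A2 and COL5A1. A single probe set passed of 10 for the remaining collagens, that of COL6A3, and 3 of 8 passed for the adhesive glycoproteins. No probe set passed for COL2A1, COL3A1, COL5A2, COL5A3, COL11A1, COL6A2, COL7A1, COL8A1, COL10A1 or COL17A1, and 31 of the 35 probe sets left out lay under 100 on all 18 arrays. COL3A1, the partner of type I collagen in soft tissue fibrils, has only 1 probe set, and it ran from 4.47 to 6.26. A probe set can miss its transcript, so these values do not say that the genes were silent. Among the 35, 23 (65.7%) had their highest value on a Yorkshire array of GD26 or GD50, against 48% of all probe sets below the filter.

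Across the 19 measured genes, transcripts of the matrix were on the whole higher on GD26 than on GD15 and lower again on GD50, in both breeds. In Meishan, 17 of the 25 probe sets rose and 1 fell by GD26, where 23.8% of all tested probe sets rose and 27.1% fell, and their median change was 0.88 against −0.06 over all. By GD50, 0 rose and 11 fell, beside 8.2% and 10.2% of all, with medians of −0.68 and −0.02. In Yorkshire, 19 rose and 0 fell by GD26, beside 20.3% and 44.9% of all, with a median of 1.02 against −0.47 (centred, 21 and 0, beside 29% and 30.7%, with medians of 1.41 and −0.08). By GD50, 0 rose and 12 fell, beside 5.72% and 7.85% of all, with medians of −0.97 and −0.07. Without the 7 probe sets that entered through their high groups, 12 of 18 rose by GD26 in each breed, and 9 in Meishan and 8 in Yorkshire fell by GD50. Counted once per gene by the brightest probe set, 11 of 19 genes rose and 1 fell, then 8 fell, in Meishan, and 13 rose, then 8 fell, in Yorkshire. GD26 enters both steps of a breed, so the fall by GD50 is not independent of the rise before it.

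**Figure D2:**
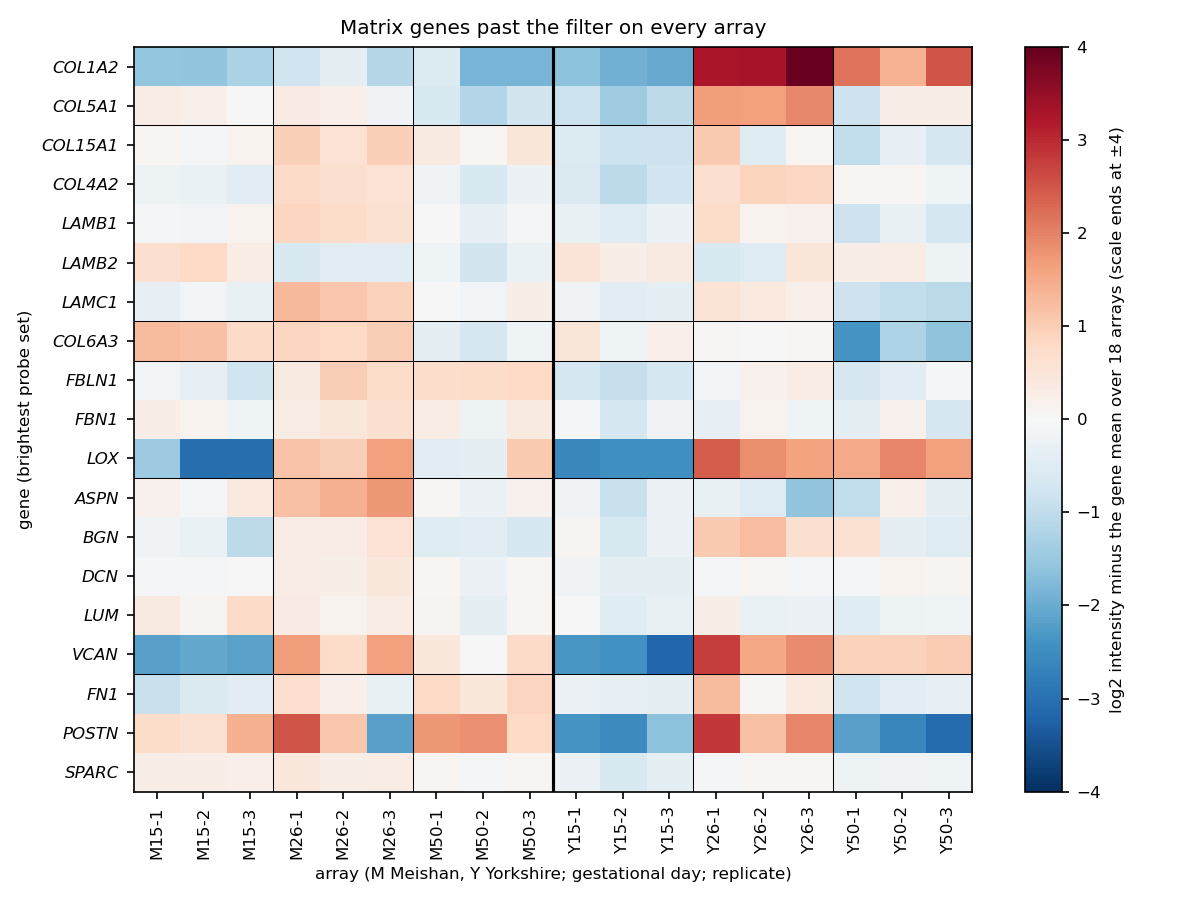
Log2 intensity of the brightest probe set of each of the 19 measured genes (rows, grouped by class) on each of the 18 arrays (columns, M Meishan, Y Yorkshire, gestational day and replicate), as the difference from the mean of the gene over the 18 arrays (red above, blue below, colours end at ±4). COL1A2 is high on the 6 later Yorkshire arrays, VCAN and LOX are low on the 6 arrays of GD15, and POSTN is uneven among the Meishan arrays of GD26.

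**Figure D3:**
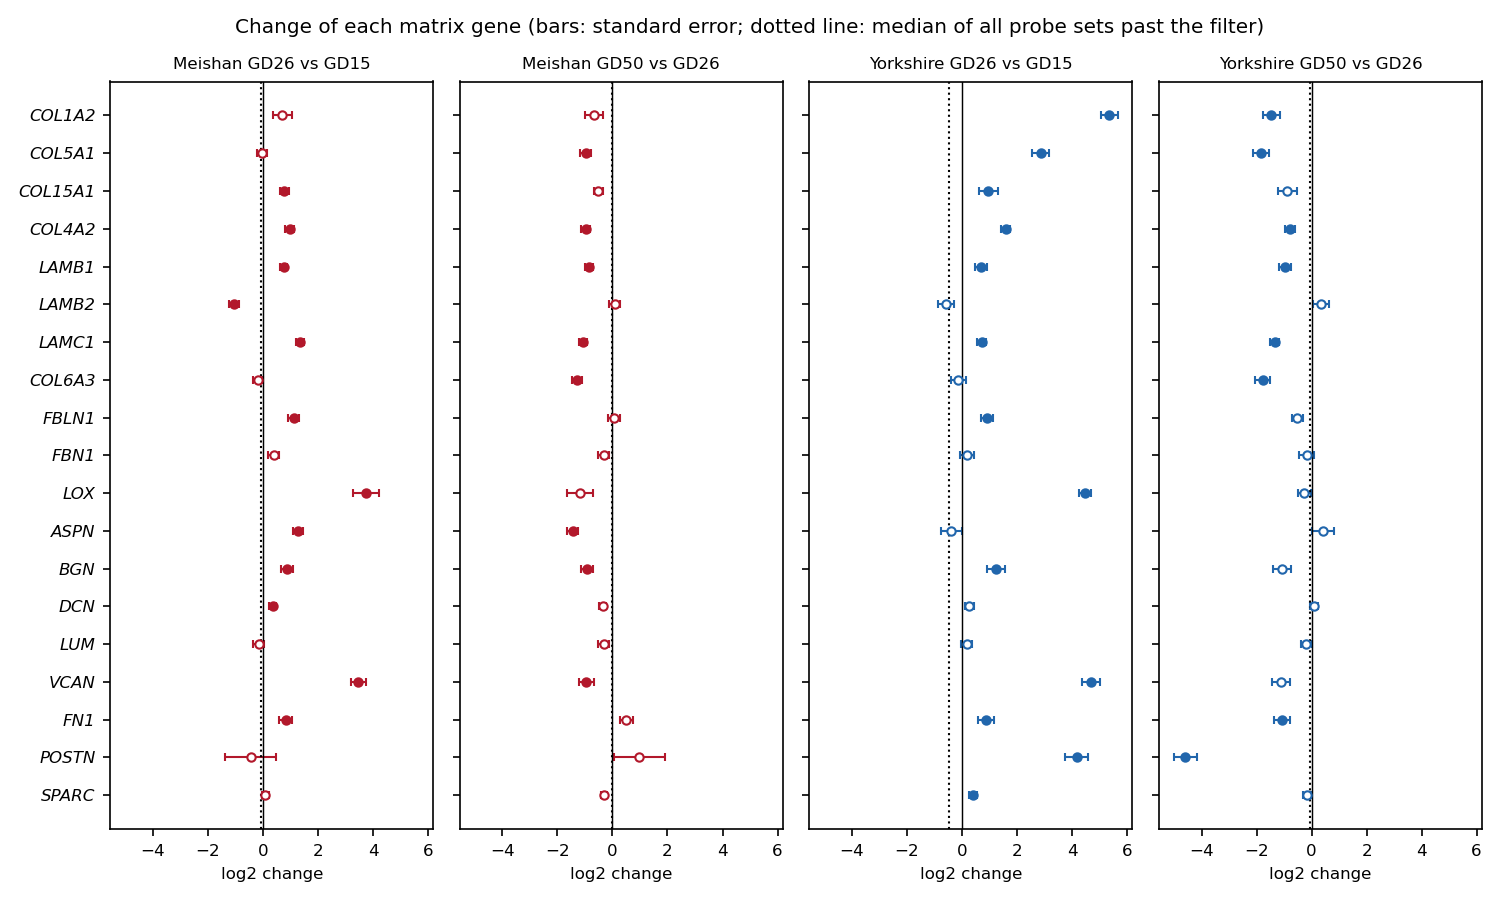
Log2 change (horizontal axes) of the brightest probe set of each gene in the 4 comparisons (red Meishan, blue Yorkshire), with bars for the standard error; filled dots have an adjusted p under 0.05. The dotted line is the median of all 9320 tested probe sets, at −0.06, −0.02, −0.47 and −0.07 from left to right, and most filled dots lie above it by GD26 and below it by GD50.

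The basement membrane genes rose together by GD26 in both breeds, with the exception of LAMB2. LAMC1 encodes the gamma-1 chain, which is shared by most laminins. On its brightest probe set the Meishan arrays gave 9.27, 9.50 and 9.32 on GD15, then 10.91, 10.68 and 10.53 on GD26, and 9.58, 9.51 and 9.84 on GD50. The Yorkshire arrays gave 9.47, 9.16 and 9.21, then 10.16, 10.01 and 9.82, and finally 8.79, 8.62 and 8.54. The arrays of GD26 lay above those of either neighbouring day in each breed, without overlap. LAMC1 rose by 1.34 ± 0.15 (adjusted p = 7.01e-05) and fell by 1.06 ± 0.15 (adjusted p = 0.00140) in Meishan. In Yorkshire it rose by 0.71 ± 0.17 (adjusted p = 0.00465; 1.11 centred) and fell by 1.34 ± 0.17 (adjusted p = 9.96e-04), the lowest group of the 6. Another probe set of LAMC1 showed the same course with larger changes, at least 4.13-fold up in Meishan and at least 5.73-fold in Yorkshire, then down by 2.01 ± 0.18 and 1.95 ± 0.40. On the dimmest of the 3 that passed, the rises were at least 1.27-fold and at least 1.40-fold, and the later values were −0.76 ± 0.27 (adjusted p = 0.0820) in Meishan and a fall of at least 1.40-fold in Yorkshire, which missed the threshold without any 1 of 4 of the 9 arrays. Both dimmer LAMC1 probe sets exceeded 100 on every GD26 array, on some of GD50 and on none of GD15. High values on GD26 were thus part of their selection, and their changes are a description.

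LAMB1, the beta-1 chain that pairs with gamma-1 in many laminins, ran at 11.41 to 11.66, 12.13 to 12.38 and 11.19 to 11.51 on the Meishan arrays of GD15, GD26 and GD50. It rose by 0.75 ± 0.14 (adjusted p = 0.00191) and fell by 0.86 ± 0.14 (adjusted p = 0.00332). In Yorkshire the same probe set rose by 0.70 ± 0.22 (adjusted p = 0.0189; 1.095 centred) and fell by 0.97 ± 0.22 (adjusted p = 0.0198). Without Yorkshire GD15 replicate 2 that rise was 0.62 (adjusted p = 0.073), and the fall missed the threshold without either of 2 arrays. A dimmer LAMB1 probe set moved more, by 1.04 ± 0.19 and −1.19 ± 0.19 in Meishan and by 2.07 ± 0.24 (2.47 centred) and −1.63 ± 0.24 in Yorkshire, and passed in all 4. COL4A2, a chain of the type IV collagen network, ran at 11.04 to 11.27, 12.05 to 12.25 and 10.89 to 11.34 in Meishan, where it rose by 0.97 ± 0.15 (adjusted p = 5.70e-04) and fell by 0.98 ± 0.15 (adjusted p = 0.00219). In Yorkshire it ran at 10.43 to 10.90, 12.13 to 12.36 and 11.30 to 11.57, a rise of 1.58 ± 0.18 (adjusted p = 5.50e-05; 1.98 centred) and a fall of 0.79 ± 0.18 (adjusted p = 0.0199). The Yorkshire fall missed the threshold without any 1 of 3 arrays (adjusted p up to 0.06).

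COL15A1, a collagen between the basement membrane and the connective tissue, rose by 0.77 ± 0.16 (adjusted p = 0.00314) in Meishan and by 0.96 ± 0.35 (adjusted p = 0.0352; 1.35 centred) in Yorkshire. The Yorkshire arrays of GD26 were uneven, at 10.32, 8.80 and 9.36, and the rise missed the threshold without any 1 of 5 of the 9 arrays (0.54 to 1.31, adjusted p up to 0.0944). By GD50 its values were −0.52 ± 0.16 (adjusted p = 0.0522) and −0.88 ± 0.35 (adjusted p = 0.128). LAMB2, the beta-2 chain that stands in place of beta-1 in other laminins, went the opposite way. It was at 8.24, 8.40 and 7.88 on the Meishan arrays of GD15, at 6.996, 7.18 and 7.19 on GD26 and at 7.42, 6.86 and 7.32 on GD50. The GD15 arrays lay above all the later ones, and LAMB2 fell by 1.06 ± 0.19 (adjusted p = 0.00120) with a value of 0.08 ± 0.19 afterwards. On the Yorkshire arrays it was at 8.12, 7.82 and 7.96, then at 6.98, 7.09 and 8.09, and at 7.87, 7.88 and 7.41. Replicate 3 of Yorkshire GD26 stood with the GD15 arrays, and the change was −0.58 ± 0.29 (adjusted p = 0.108; −0.18 centred) with it and −0.93 (adjusted p = 0.00542) without it. Smooth muscle cells have a basement membrane of their own, and the summed intensity of 9 smooth muscle and pericyte genes was 9818 to 10780, 20300 to 23480 and 11430 to 15720 in Meishan over the 3 days and 6574 to 8477, 15010 to 17260 and 14540 to 15600 in Yorkshire, with MYLK under 100 on all arrays. For 8 endothelial genes the counts by GD26 were 2 higher and 0 lower in Meishan (23.8% and 27.1% of all). In Yorkshire they were 2 higher and 3 lower (20.3% and 44.9% of all). By GD50 they were 0 higher and 5 lower in Meishan (8.2% and 10.2% of all). For Yorkshire they were 1 higher and 2 lower (5.72% and 7.85% of all). Their part in the basement membrane changes was not tested.

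**Figure D4:**
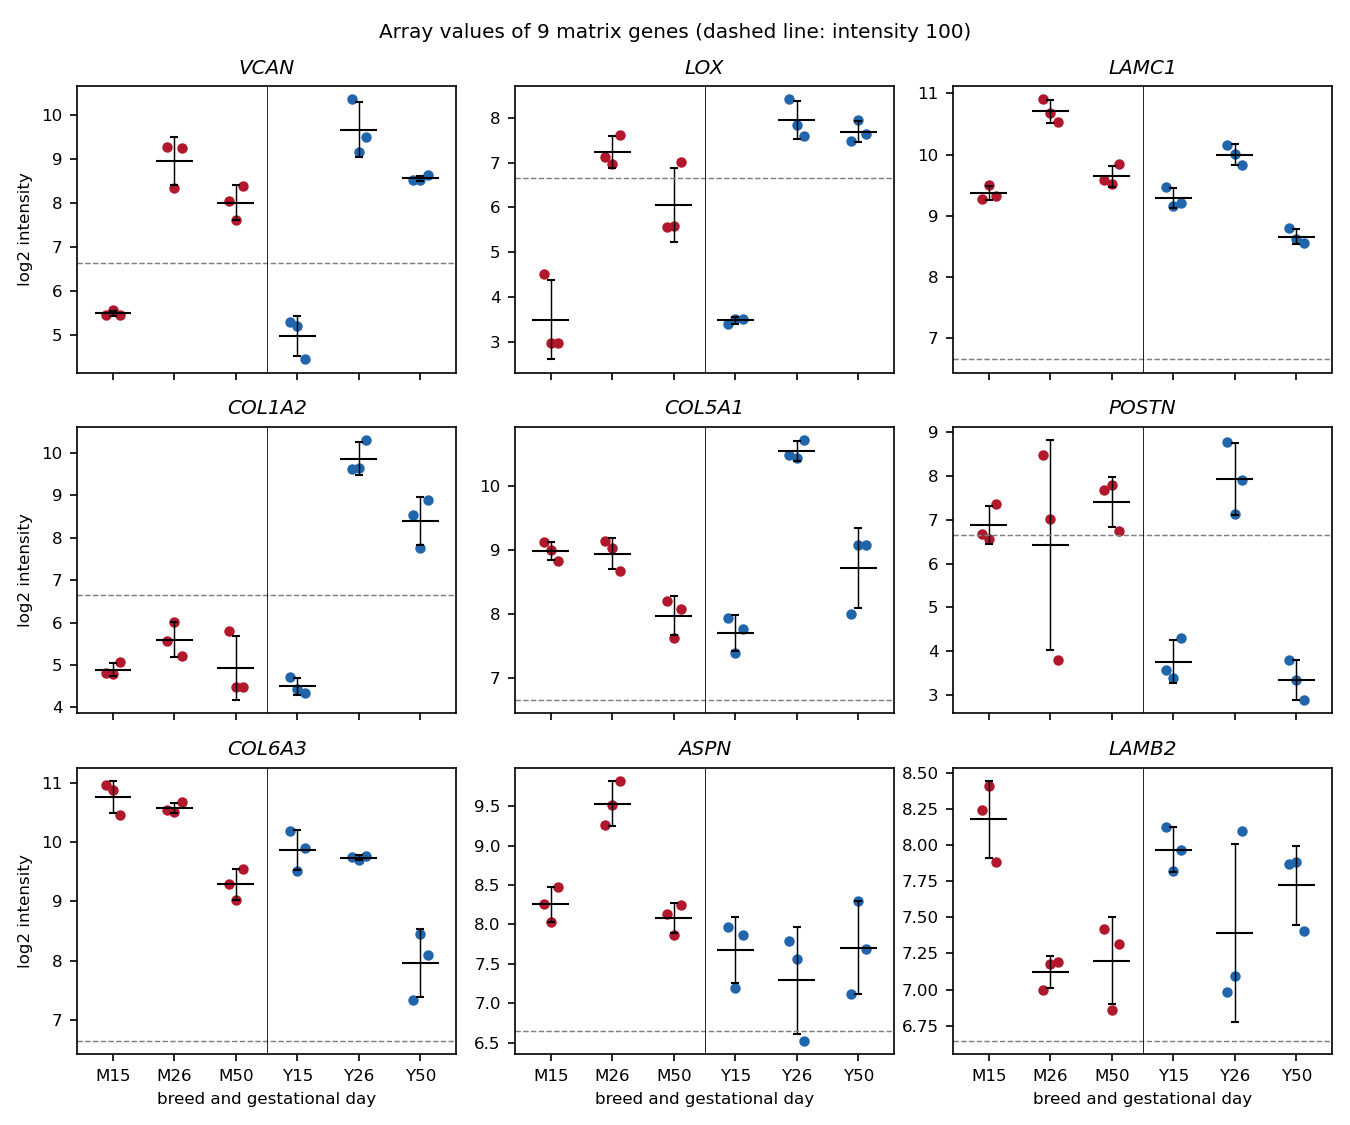
Log2 intensity (vertical axes) of 9 matrix genes on each array, by breed and gestational day (M Meishan, red; Y Yorkshire, blue); dots are arrays, black bars are group means with SD (n = 3), and the dashed line is an intensity of 100. COL1A2 stays under the line on the 9 Meishan arrays, LAMC1 peaks on GD26 in both breeds, COL6A3 is lowest on GD50 and ASPN peaks on GD26 in Meishan.

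The 2 measured fibrillar collagens rose by GD26 in Yorkshire, and the change of each exceeded that in Meishan. COL1A2 is the alpha-2 chain of type I collagen, the main fibril collagen of connective tissue. Its probe set gave 4.81, 4.79 and 5.08 on the Meishan arrays of GD15, 5.57, 6.02 and 5.21 on GD26 and 5.80, 4.49 and 4.49 on GD50, all under an intensity of 100. On the Yorkshire arrays it gave 4.71, 4.43 and 4.35 on GD15, 9.62, 9.64 and 10.30 on GD26, and 8.54, 7.75 and 8.88 on GD50. COL1A2 thus passed 100 only on the 6 Yorkshire arrays of the later days. As it was tested only because of these arrays, a difference between them and the others was built into its selection, and its changes are a description. It rose at least 9.26-fold (adjusted p = 7.33e-07) and then fell by 1.46 ± 0.30 (adjusted p = 0.0129). Array 1 of Yorkshire GD26, whose controls (11.71) were nearest to the other 12 arrays, read 9.62. In a fit with this array alone for its group, which assumes that it varies like the arrays of the other groups, the later value of COL1A2 was −1.23 (adjusted p = 0.0956). The other COL1A2 probe set lay under 100 on all arrays, so the rise rests on a single probe set. COL6A2, a type VI collagen chain that missed the filter by 1 array, ran from 5.08 to 5.95 on the Meishan arrays and those of Yorkshire GD15, and gave 6.76, 8.41 and 8.43 on Yorkshire GD26 and 6.09, 6.71 and 7.34 on GD50. It was named after its values were seen and was not tested.

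COL5A1 is the alpha-1 chain of type V collagen, which sits inside type I fibrils and sets their width. On its brightest probe set the Meishan arrays gave 9.12, 8.997 and 8.83, then 9.13, 9.02 and 8.67, and 8.20, 7.62 and 8.08 on GD50. The Yorkshire arrays gave 7.94, 7.39 and 7.75, then 10.48, 10.44 and 10.72, and 7.99, 9.08 and 9.07. The 3 Yorkshire arrays of GD26 lay above all 15 others, and those of Yorkshire GD15 below all Yorkshire arrays of GD50. In Yorkshire COL5A1 rose by 2.86 ± 0.30 (7.24-fold, adjusted p = 3.30e-05; 3.25 centred) and fell by 1.84 ± 0.30 (adjusted p = 0.00393), and in Meishan it changed by −0.04 ± 0.19 (adjusted p = 0.883) and fell by 0.98 ± 0.19 (adjusted p = 0.00692). Another probe set of the gene differed on the first Meishan step, with a rise of 1.01 ± 0.18 (adjusted p = 0.00122), and gave 1.96 ± 0.17 (2.35 centred) and −0.89 ± 0.17 in Yorkshire, both past the test. By GD50 in Meishan this probe set changed by −0.47, which did not pass the test. Without Meishan GD15 replicate 3 it did (adjusted p = 0.036). The probe sets thus differed on the first step of COL5A1 in Meishan, and on the second only the brightest fell. The cause was not tested.

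COL6A3, the longest chain of the beaded filaments of type VI collagen, did not move by GD26 past the test and fell by GD50 in both breeds. In Meishan it was at 10.97, 10.87 and 10.46 on GD15, at 10.55, 10.51 and 10.67 on GD26 and at 9.30, 9.03 and 9.54 on GD50. In Yorkshire it was at 10.20, 9.52 and 9.90, then at 9.75, 9.70 and 9.77, and at 7.33, 8.46 and 8.09. All arrays of GD50 lay below those of both earlier days in their breed. The first change was −0.19 ± 0.18 (adjusted p = 0.399) in Meishan and −0.13 ± 0.28 (adjusted p = 0.698; 0.26 centred) in Yorkshire, and the fall was 1.29 ± 0.18 (adjusted p = 0.00123) and 1.78 ± 0.28 (adjusted p = 0.00371).

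LOX, lysyl oxidase, starts the crosslinking of collagen and elastin outside the cell. It was at 4.52, 2.98 and 2.98 on the Meishan arrays of GD15, at 7.12, 6.96 and 7.62 on GD26 and at 5.56, 5.58 and 7.01 on GD50. On the Yorkshire arrays it was at 3.39, 3.52 and 3.52, then at 8.42, 7.85 and 7.58, and at 7.49, 7.94 and 7.64. Every GD26 array was above an intensity of 100 and every GD15 array was below it, and in Meishan 1 of 3 arrays stayed above it on GD50 against 3 of 3 in Yorkshire. The rise was at least 1.51-fold in Meishan (adjusted p = 1.72e-04), and at least 2.47-fold in Yorkshire (adjusted p = 3.74e-07). LOX was tested only through arrays of the later days, so this rise was built into its selection and is a description. The second change in Meishan, −1.18 ± 0.48 (adjusted p = 0.123), was −1.66 (adjusted p = 0.0417) without replicate 3 of GD50, and the Yorkshire value was −0.26 ± 0.23 (adjusted p = 0.492). FBLN1, a fibulin of elastic fibres and basement membranes, rose by 1.12 ± 0.21 (adjusted p = 0.00155) in Meishan and by 0.91 ± 0.20 (adjusted p = 0.00353; 1.30 centred) in Yorkshire. It had no later change past the test, with 0.06 ± 0.21 in Meishan, where the GD50 arrays stayed at 10.34 to 10.44, and −0.51 ± 0.20 (adjusted p = 0.128) in Yorkshire. From Yorkshire GD26 array 1 alone its rise was 0.67 (adjusted p = 0.0804). FBN1, the main protein of microfibrils, gave 0.39 ± 0.19 (adjusted p = 0.112) and 0.18 ± 0.27 (adjusted p = 0.562; 0.58 centred) by GD26 on its brighter probe set. The dimmer FBN1 probe set rose by 0.89 ± 0.17 (adjusted p = 0.00191) and 1.02 ± 0.23 (adjusted p = 0.00353; 1.41 centred) and fell by 0.68 ± 0.17 (adjusted p = 0.0236) by GD50 in Meishan, a call that was lost without any 1 of 4 of the 9 arrays.

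Among the proteoglycans, the largest change was that of VCAN, versican, a large proteoglycan of loose and expanding matrix that binds hyaluronan. On its brightest probe set the Meishan arrays gave 5.46, 5.57 and 5.47 on GD15, 9.29, 8.34 and 9.26 on GD26, and 8.04, 7.62 and 8.39 on GD50. The Yorkshire arrays gave 5.30, 5.20 and 4.45, then 10.37, 9.16 and 9.50, and 8.54, 8.53 and 8.63. All GD15 arrays lay under 100 and all later arrays above it. VCAN was thus tested only through the later arrays. Its rise after GD15 was built into its selection, and the p-values of that step are a description. In Meishan VCAN rose at least 4.99-fold (adjusted p = 7.36e-06), and the Yorkshire rise was at least 8.19-fold (adjusted p = 2.48e-06). By GD50 it fell by 0.95 ± 0.27 (adjusted p = 0.0382) in Meishan, a call lost without any 1 of 5 of the 9 arrays (adjusted p up to 0.128), and changed by −1.11 ± 0.32 (adjusted p = 0.0514; −1.04 and 0.0385 centred) in Yorkshire. In Meishan a dimmer VCAN probe set rose at least 1.64-fold (adjusted p = 1.49e-04), and its Yorkshire mean of GD26 lay under 100. This probe set too was tested only through later arrays, most of them Meishan. Its Meishan rise was thus built into its selection and is a description.

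ASPN, asporin, a small leucine-rich proteoglycan that binds collagen, moved in Meishan. It was at 8.26, 8.03 and 8.48 on GD15, at 9.26, 9.52 and 9.82 on GD26 and at 8.14, 7.87 and 8.24 on GD50, so the GD26 arrays stood above the others. On the Yorkshire arrays it was at 7.96, 7.19 and 7.86, then at 7.79, 7.56 and 6.52, and at 7.12, 8.30 and 7.69, with overlap between all 3 days. ASPN rose by 1.28 ± 0.19 (adjusted p = 3.75e-04) and fell by 1.45 ± 0.19 (adjusted p = 8.30e-04) in Meishan, beside −0.38 ± 0.40 (adjusted p = 0.413; 0.01 centred) and 0.41 ± 0.40 (adjusted p = 0.530) in Yorkshire. BGN, biglycan, of the same family, rose in both breeds, by 0.88 ± 0.22 (adjusted p = 0.00860) and 1.24 ± 0.33 (adjusted p = 0.00812; 1.63 centred; 1.32 and 0.0542 from Yorkshire GD26 array 1 alone). It then fell by 0.92 ± 0.22 (adjusted p = 0.0194) in Meishan, which was lost without any 1 of 3 arrays (adjusted p up to 0.07), and changed by −1.06 ± 0.33 (adjusted p = 0.0604; −0.996 and 0.0476 centred) in Yorkshire. DCN and LUM, decorin and lumican, which space collagen fibrils and are neighbours on pig chromosome 5 in the RefSeq annotation, stayed within narrow ranges. DCN ran from 13.23 to 14.01 over all 18 arrays and LUM from 11.99 to 13.22. DCN rose by 0.35 ± 0.13 (adjusted p = 0.0459) in Meishan, a call lost without any 1 of 8 of the 9 arrays and with the replicate numbers as a block (adjusted p = 0.0528). Its Yorkshire value was 0.27 ± 0.15 (adjusted p = 0.151), and 0.66 (adjusted p = 0.0102) centred. LUM gave −0.15 ± 0.20 (adjusted p = 0.556) in Meishan and 0.16 ± 0.21 (adjusted p = 0.502) in Yorkshire, and 0.56 (adjusted p = 0.0375) centred.

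POSTN, periostin, a matricellular protein that aids collagen assembly, gave the widest spread among the adhesive glycoproteins. In Meishan its arrays read 6.68, 6.56 and 7.37 on GD15, 8.47, 7.02 and 3.79 on GD26, and 7.68, 7.78 and 6.75 on GD50. In Yorkshire they read 3.58, 3.39 and 4.31, then 8.77, 7.13 and 7.90, and 3.79, 3.33 and 2.88. POSTN was thus above an intensity of 100 on 7 of 9 Meishan arrays, and in Yorkshire above it on the 3 arrays of GD26 and on no others. In Yorkshire the rise was at least 2.44-fold (adjusted p = 2.73e-05) and so was the fall (adjusted p = 1.73e-04). Meishan gave −0.44 ± 0.93 (adjusted p = 0.720) and 0.98 ± 0.93 (adjusted p = 0.522). The Meishan arrays of GD26 stood in the same order for POSTN and for the embryonic globin HBE1 (12.64, 10.96 and 6.64), and all 3 Yorkshire arrays of GD26 held HBE1 at 13.81 or more, but HBE1 was at no more than 3.07 on the Meishan arrays of GD15 and GD50, which read POSTN at 6.56 to 7.78. What part conceptus tissue had in POSTN was not tested.

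FN1, fibronectin, a fibril-forming ligand of integrins, was at 10.31, 10.60 and 10.74 on the Meishan arrays of GD15, at 11.86, 11.40 and 10.88 on GD26 and at 11.97, 11.61 and 12.05 on GD50. In Yorkshire it was at 10.96, 10.85 and 10.81, then at 12.47, 11.24 and 11.57, and at 10.40, 10.77 and 10.86. The arrays of GD26 lay above those of GD15 in each breed, and GD50 lay high in Meishan and low in Yorkshire. FN1 rose by 0.83 ± 0.24 (adjusted p = 0.0172) in Meishan and 0.89 ± 0.29 (adjusted p = 0.0225; 1.28 centred) in Yorkshire, and each call was lost without either of 2 arrays (adjusted p up to 0.0593 and 0.0637). By GD50 it changed by 0.50 ± 0.24 (adjusted p = 0.192) in Meishan and fell by 1.08 ± 0.29 (adjusted p = 0.0383) in Yorkshire, a call lost without any 1 of 7 of the 9 arrays (adjusted p up to 0.0996) and with the replicate numbers as a block (adjusted p = 0.0536). SPARC, osteonectin, a collagen-binding protein, ran from 13.41 to 14.45 over all arrays. It gave 0.09 ± 0.12 (adjusted p = 0.549) in Meishan and a rise of 0.41 ± 0.16 (adjusted p = 0.0429; 0.80 centred) in Yorkshire, lost without any 1 of 6 arrays, with the replicate numbers as a block (adjusted p = 0.0742) and from array 1 alone (0.35, adjusted p = 0.212).

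The breeds were compared by the Yorkshire change minus the Meishan change. For genes under 100 in some group these differences are the model's estimates, whose size depends on values below that intensity. From GD15 to GD26, 7 of the 25 probe sets had a higher change in Yorkshire and 2 a lower change, beside 8.7% and 26.8% of all tested probe sets (centred, 8 and 1, beside 13.8% and 13%). The 4 with the largest estimates were COL1A2 with 4.65 ± 0.49 (adjusted p = 6.68e-06), POSTN with 4.61 ± 1.12 (adjusted p = 0.00559), COL5A1 with 2.90 ± 0.36 (adjusted p = 3.97e-05) and ASPN with −1.66 ± 0.46 (adjusted p = 0.0120). With any 1 of 18 arrays left out they stayed past the test, at 4.43 to 4.86, 3.29 to 5.63, 2.74 to 3.02 and −1.91 to −1.28. For COL1A2 this is a description, as it passed the filter only through its Yorkshire arrays of GD26 and GD50. A breed difference was thus built into its selection, and leaving out arrays cannot test it. With intensities under 50 set to 50, the difference was 4.09 (adjusted p = 2.43e-07) for COL1A2 and 2.11 (adjusted p = 0.0314) for POSTN, below that of COL5A1, whose groups were all above 100. With array 1 alone for Yorkshire GD26, where the spread again comes from the other groups, ASPN gave −1.16 (adjusted p = 0.0974). The less bright COL5A1 probe set differed by 0.94 ± 0.24 (adjusted p = 0.00750; from array 1 alone 0.81, adjusted p = 0.0666) and the less bright LAMB1 probe set by 1.03 ± 0.31 (adjusted p = 0.0174), whereas the brightest LAMB1 probe set gave −0.05 ± 0.26. VCAN differed by 1.23 ± 0.45 (adjusted p = 0.0426) and COL4A2 by 0.61 ± 0.23 (adjusted p = 0.0438), which were lost without any 1 of 8 and of 9 arrays. With intensities under 50 set to 50 the VCAN difference was 0.71 (adjusted p = 0.163), and the dimmer VCAN probe set gave −0.898 (adjusted p = 0.0717). That dimmer probe set passed the filter mostly through Meishan arrays. From array 1 alone the COL4A2 difference was 0.48. The brightest LAMC1 probe set differed by −0.63 ± 0.21 (adjusted p = 0.0331) as deposited, by −0.27 (adjusted p = 0.348) centred and by −0.47 from array 1 alone. The deposited call was lost without any 1 of 7 of 18 arrays (adjusted p up to 0.0909). With intensities under 50 set to 50, the other LAMC1 probe sets gave 0.27 (adjusted p = 0.628) and 0.139 (adjusted p = 0.762). For LOX, FBLN1, BGN and FN1, which rose in both breeds, the difference was 0.73 ± 0.58, −0.21 ± 0.29, 0.36 ± 0.41 and 0.06 ± 0.40, none past the test.

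From GD26 to GD50, 1 of the 25 had a higher change in Yorkshire and 2 a lower one, beside 2.05% and 2.32% of all. POSTN differed by −5.57 ± 1.12 (adjusted p = 0.0102), or −6.59 to −4.25 with 1 array left out, all past the test, and −2.65 (adjusted p = 0.0426) with intensities under 50 set to 50. ASPN differed by 1.86 ± 0.46 (adjusted p = 0.0319), a call lost without any 1 of 6 of 18 arrays, with the replicate numbers as a block (adjusted p = 0.0518) and from Yorkshire GD26 array 1 alone (1.36, adjusted p = 0.104). FN1 differed by −1.58 ± 0.40 (adjusted p = 0.0330), a call lost without any 1 of 5 arrays (adjusted p up to 0.0976). The fall of COL6A3 differed by −0.49 ± 0.35 (adjusted p = 0.461) between the breeds, that of LAMC1 by −0.28 ± 0.21 (adjusted p = 0.499) and that of COL5A1 by −0.86 ± 0.36 (adjusted p = 0.201).

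**Figure D5:**
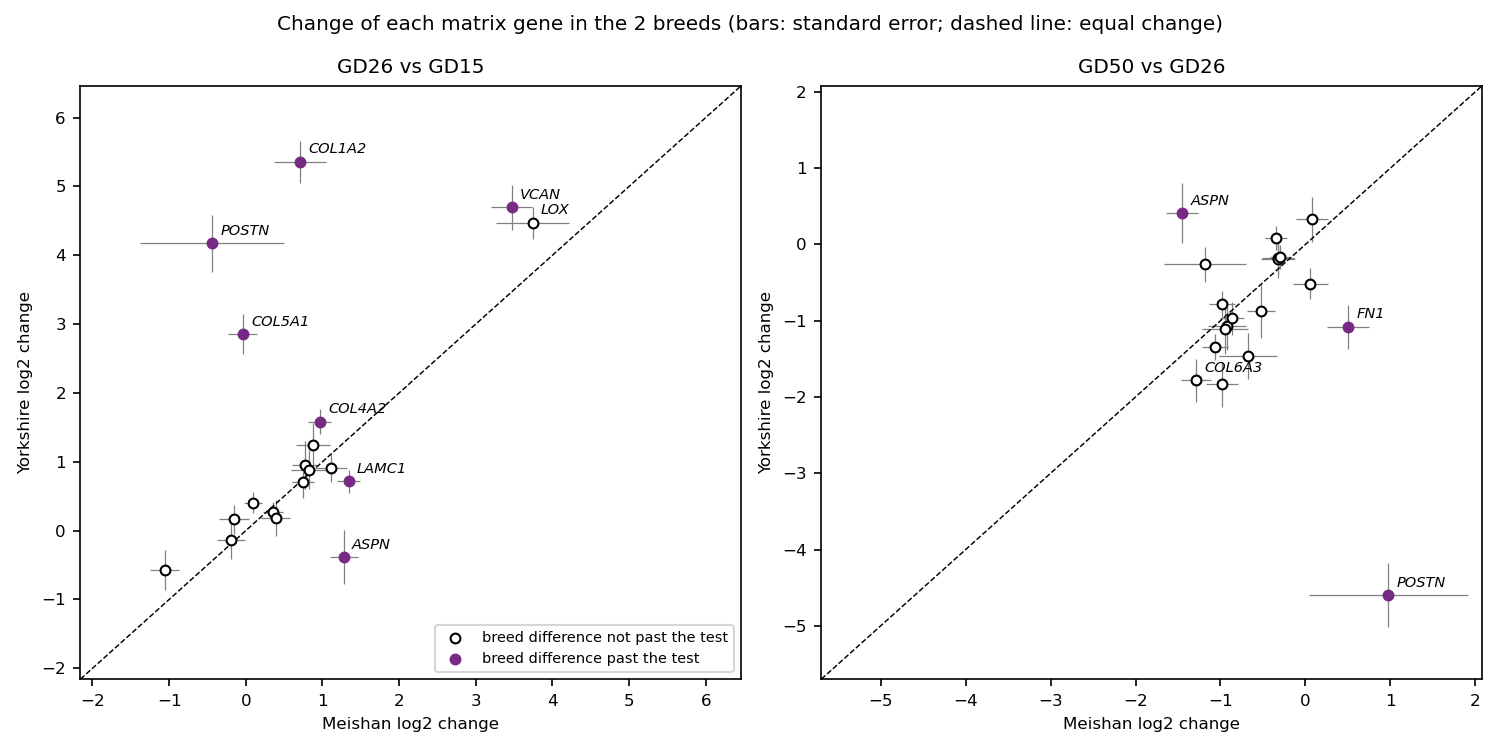
Log2 change in Yorkshire (vertical) against Meishan (horizontal) of the brightest probe set of each of the 19 genes, from GD15 to GD26 on the left and from GD26 to GD50 on the right, with bars for the standard error and a dashed line of equal change. Filled purple dots had a breed difference past the test, among them COL1A2 (4.65), POSTN (4.61) and COL5A1 (2.90) on the left and POSTN (−5.57) on the right.

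Genes that act on or beside these proteins were counted from 3 lists. Beside these counts, 23.8% of all tested probe sets rose and 27.1% fell by GD26 in Meishan and 20.3% and 44.9% in Yorkshire, and by GD50 8.2% rose and 10.2% fell in Meishan and 5.72% and 7.85% in Yorkshire. Of 11 measured genes of collagen folding, modification and crosslinking, 5 rose and 0 fell by GD26 in Meishan and 3 rose and 2 fell in Yorkshire (6 and 1 centred), and by GD50 0 rose and 4 fell, and 1 rose and 4 fell. LOXL4, a relative of LOX, rose at least 2.32-fold and fell at least 2.32-fold in Meishan, and rose and fell at least 3.09-fold in Yorkshire. It passed the filter only through the 6 arrays of GD26. Its rise and fall were thus built into its selection and are a description, also within the counts above. SERPINH1, the collagen chaperone HSP47, rose by 1.51 ± 0.16 (adjusted p = 3.30e-05) in Yorkshire, beside 0.34 ± 0.19 (adjusted p = 0.160) in Meishan, and the breeds differed by 1.17 ± 0.24 (adjusted p = 0.00190). It then fell in both, by 0.77 ± 0.19 and 1.12 ± 0.16. FKBP10, a chaperone of collagen in the endoplasmic reticulum, rose by 0.57 ± 0.19 in Meishan and then fell by 1.55 ± 0.19, and in Yorkshire it fell at least 1.41-fold by GD50. PCOLCE2, which aids the cutting of procollagen, fell by 1.29 ± 0.17 and then rose by 0.72 ± 0.17 in Yorkshire, beside 0.32 ± 0.15 and −0.16 ± 0.15 in Meishan, and the breeds differed in both steps (−1.61 ± 0.22, adjusted p = 7.1e-05, and 0.88 ± 0.22, adjusted p = 0.0320).

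Of 13 measured genes for other matrix glycoproteins, 6 rose and 1 fell by GD26 in Meishan (23.8% and 27.1% of all) and 8 rose and 2 fell in Yorkshire (20.3% and 44.9% of all), and by GD50 1 rose and 5 fell (8.2% and 10.2% of all), and 2 rose and 0 fell (5.72% and 7.85% of all). THBS1, thrombospondin-1, rose by 4.13 ± 0.43 and 4.58 ± 0.29, from 6.40 to 8.89 over the GD15 arrays to 10.83 to 12.1 on GD26, and had no second change past the test. SPP1, osteopontin, rose by 3.07 ± 0.74 and 2.64 ± 0.36. CYR61, a matricellular protein that binds integrins, rose by 1.82 ± 0.25 in Meishan and at least 7.46-fold in Yorkshire. MFAP5, a microfibril protein, fell by 3.72 ± 0.22 (adjusted p = 1.34e-06) in Meishan, from 11.07, 10.37 and 10.45 to 6.65, 7.02 and 7.06, while its Yorkshire arrays started at 6.98 to 7.26, and it rose in both breeds by GD50. Of 7 measured matrix receptors, to be read against the same shares, 4 rose and 1 fell by GD26 in Meishan and 3 rose and 2 fell in Yorkshire (5 and 2 centred), and 3 rose and 0 fell, and 3 rose and 1 fell, by GD50. The proteoglycan receptor SDC2, syndecan-2, rose by 2.25 ± 0.19 and 1.91 ± 0.16, and SDC4, syndecan-4, by 1.63 ± 0.14 in Meishan beside 0.48 ± 0.26 (adjusted p = 0.128) in Yorkshire. ITGAV, integrin alpha-V, fell by 0.78 ± 0.19 and 0.92 ± 0.20 and then rose by 0.89 ± 0.19 and 1.01 ± 0.20. ITGB3, integrin beta-3, fell at least 2.36-fold by GD26 in Yorkshire, and rose by 3.26 ± 0.28 in Meishan and at least 1.67-fold in Yorkshire by GD50.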

How the data were processed

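Endometrial RNA was hybridized to 18 Affymetrix porcine arrays, 3 in each of the 6 groups. According to the authors' methods, the deposited log2 intensities come from the R packages affy and GCRMA, after background correction, normalization and summarization, and the submitters' notes also name RMA; versions are not given in the sources used here. The table holds 24123 probe sets, 124 of them controls, with values from 2.18 to 16.05. Array scans were not used here and the authors' normalization was kept, and the number of arrays limits the precision.

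Genes were named from the platform annotation, updated by gene identifier: 10099 probe sets had 1 symbol, 198 several and 13826 none, and all 60 matrix probe sets matched RefSeq. Non-control probe sets with an intensity above 100 on at least 6 arrays were kept (9320), and limma 3.58.1 (lmFit, eBayes) in R 4.3.3 was fitted within each breed over its 3 days, with 1 fit over the 6 groups for breed differences and Benjamini-Hochberg adjustment over the 9320. The eBayes prior had 3.67 and 3.44 degrees of freedom. A gene with several probe sets is described by the brightest. Values on every array are printed for the genes with the 3 largest called rises and falls in each comparison within a breed and the 4 largest called breed differences of each step, and up to 4 genes of a list are named by the size of their change. The members, lists, tests and this rule were chosen with earlier results of these data known. The fit was tested on simulated data with planted changes. The alternatives were 2 other call rules, other filters, normalizations and variance models, a floor of 50, the replicate number as a block, a joint fit of the breeds, counts by gene and leaving out each array; Yorkshire GD26 from its array 1 alone was added after seeing the data. Python 3.11.15 with matplotlib 3.10.9 drew the figures.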

Additional observations from a re-analysis of the deposited data

Results flagged for a closer look

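Each result here was picked out because the breeds differed in a test of the difference itself (limma, adjusted p under 0.05), and all values are the Yorkshire log2 change minus the Meishan log2 change over 3 arrays per group. From GD15 to GD26 the change was higher in Yorkshire for COL1A2 (4.652), POSTN (4.612), COL4A2 (0.615) and both COL5A1 probe sets (2.895 and 0.942). It was also higher for the brightest VCAN probe set (1.229) and the dimmer LAMB1 probe set (1.032). It was lower for ASPN (−1.663) and for the brightest LAMC1 probe set (−0.627). From GD26 to GD50 it was higher in Yorkshire for ASPN (1.864) and lower for FN1 (−1.581) and POSTN (−5.573). All these values rest on the Yorkshire arrays of GD26, which share with those of GD50 the brighter hybridization controls. The part of this brightness was not tested directly. The values for COL1A2, POSTN and VCAN are estimates that involve groups under an intensity of 100. COL1A2 was also tested only because of its Yorkshire arrays of GD26 and GD50, so its difference was built into its selection. The POSTN differences also rest on Meishan arrays of GD26 that spanned 3.79 to 8.47.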

How the results depend on the processing

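Of 72 changes of matrix probe sets past the test, 54 stayed past it without any 1 array, and 0 of 1712 values under the alternatives reversed; 213 missed the threshold. With Bonferroni adjustment 13 of the 72 remained past it: the higher and lower counts were 2 and 0 for Meishan GD26 vs. GD15, 0 and 1 for each breed by GD50, 7 and 0 for Yorkshire GD26 vs. GD15, 2 and 0 for the first breed difference and 0 and 0 for the second. With a change of at least 2-fold also required, 10 rose by GD26 and 5 fell by GD50 in Meishan, and 1 first breed difference was lower. Counted by gene, 11 rose by GD26 in Meishan. Without the filter, 1 probe set rose by GD50 in each breed (COL17A1 and COL8A1, both under 100 on all arrays), and the second breed difference had 0 higher and 1 lower, as the lower count was 1 with an intensity above 200. The first breed difference had 1 lower with median centring or quantile normalization and 0 with cyclic loess. From Yorkshire GD26 array 1 alone, in which the lone array is assumed to vary like the other groups, 13 of 43 changes missed the threshold, 1 probe set fell by GD26 (LAMB2), 0 first breed differences were lower and 0 second breed differences were higher. Leaving out 1 array gave 15 to 17 higher and 1 to 1 lower in Meishan by GD26, 0 to 0 and 8 to 13 by GD50, 15 to 19 and 0 to 1 in Yorkshire by GD26 and 0 to 0 and 8 to 13 by GD50. The first breed difference gave 5 to 7 higher and 1 to 2 lower, and the second 0 to 1 and 1 to 2. With intensities under 50 set to 50 the first VCAN difference missed the threshold. The lowest counts came without Meishan GD26 replicate 3 (8 falls), Yorkshire GD15 replicate 2 (15 rises) and Yorkshire GD50 replicate 3 (8 falls).

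Arrays of the same replicate number correlated in their deviations at −0.136 to 0.328 in Meishan and −0.072 to 0.265 in Yorkshire. Arrays of different numbers did so at −0.333 to 0.222 and −0.3 to 0.181. These ranges overlap and do not settle whether the numbers pair the arrays. With the replicate number as a block 4 of the 72 changes missed the threshold (DCN in Meishan, SPARC and FN1 in Yorkshire and the second ASPN difference), and 0 second breed differences were higher. The causes of these shifts were not tested. Folds against a group under an intensity of 100 are bounds, fitted differences of such genes are estimates without a fixed size, and 35 matrix probe sets were too dim to test.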
